A study of Quercus lobata with 12 samples.

Results

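In 2 valley oak (Quercus lobata) seedlings of the family LAY-15, 583 of the 39373 genes counted in leaf RNA stood above every other seedling of the study. The genes were chosen by their measured levels. CPM was taken as the reads of a gene divided by all reads counted on genes in the same seedling and multiplied by 1000000. A gene was taken when the lower CPM of LAY-15-34 and LAY-15-30 was at least 1 and at least 2 times the highest CPM among the other 10 seedlings. They made up 1.48% of the genes in the table. The levels that set the pair apart are therefore described and not tested. Treatment, which did not enter the choice, was tested over all seedlings, where the chosen levels of the pair enter the fit. Other tests were run among the seedlings outside the pair.

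The study sprayed 5-month-old seedlings daily for 27 days with 50 µM 5-Azacytidine in TWEEN 20, a surfactant, or with TWEEN 20 alone, and asked whether a loss of DNA methylation was accompanied by differences in leaf gene expression. RNA was sequenced from 6 treated and 6 control seedlings, with 2 of each from family LAY-15, from family HV-11 and from family YORK-09. A family is the open-pollinated acorns of a single maternal tree, which the study takes to be mostly half-siblings, so the seedlings are not clones. All seedlings had been pruned before spraying, and leaves were collected and frozen when spraying ended. The extraction day, 16, 19 or 30 October, is thus the day of laboratory work on frozen leaf and not the age of the plant. LAY-15-34 (5-Azacytidine) and LAY-15-30 (control) were extracted on day 19. The other treated seedlings were HV-11-33 (day 19), HV-11-40, LAY-15-09 and YORK-09-37 (day 30) and YORK-09-08 (day 16). The other controls were HV-11-05 (day 19), HV-11-34, LAY-15-03 and YORK-09-10 (day 30) and YORK-09-03 (day 16). Each family and day thus holds 1 treated and 1 control seedling, which gives 6 pairs. The 4 seedlings of day 19 were also those the study used for bisulfite sequencing, which it picked for marked differences in phenotype.

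5-Azacytidine is a cytosine analog. It is built into new DNA, cannot take up a methyl group and traps the methyltransferases that copy methyl marks after replication. In plants, loss of methylation in promoters can release genes and transposable elements from silencing, while methylation within gene bodies is often found on active genes. Leaf RNA of a whole seedling mixes epidermis, mesophyll, veins and any microbes on the leaf. A level therefore depends on both the make-up of the tissue and the RNA in each cell, and these cannot be told apart in bulk samples. Gene names do not accompany the deposited identifiers, of which 0 were found in RefSeq's list of Quercus lobata genes. The roles of the genes, and markers of leaf cell types, were therefore not analysed here, and no sequence is shown.

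Between 9926728 and 11570198 reads were counted on genes per seedling, with 11415235 in LAY-15-34 and 9957359 in LAY-15-30, so neither seedling of the pair stood outside the range. Reads fell on 26484 genes in LAY-15-34 and 25856 in LAY-15-30, against 25687 to 27483 over all 12 seedlings. The 10 most counted genes held 11.7% of the reads in LAY-15-34 and 8.39% in LAY-15-30, within the range of 5.27% to 11.7% over the study. Each group of family, treatment and day holds a single seedling, so levels within the pair have no replicate.

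The chosen genes together took 2.52% of all counted reads in LAY-15-34 (95% Wilson interval 2.51% to 2.53%, counting error only) and 4.35% in LAY-15-30 (4.34% to 4.36%). In the other 10 seedlings they took between 0.237% (YORK-09-03) and 0.530% (HV-11-33), with a median of 0.334%. In summed CPM, the lower seedling of the pair was 4.75-fold above the highest of the others. The sum was not carried by a handful of genes. The 10 members with the most reads held 29.8% of the member reads in LAY-15-34 and 26.4% in LAY-15-30.

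**Figure D1:**
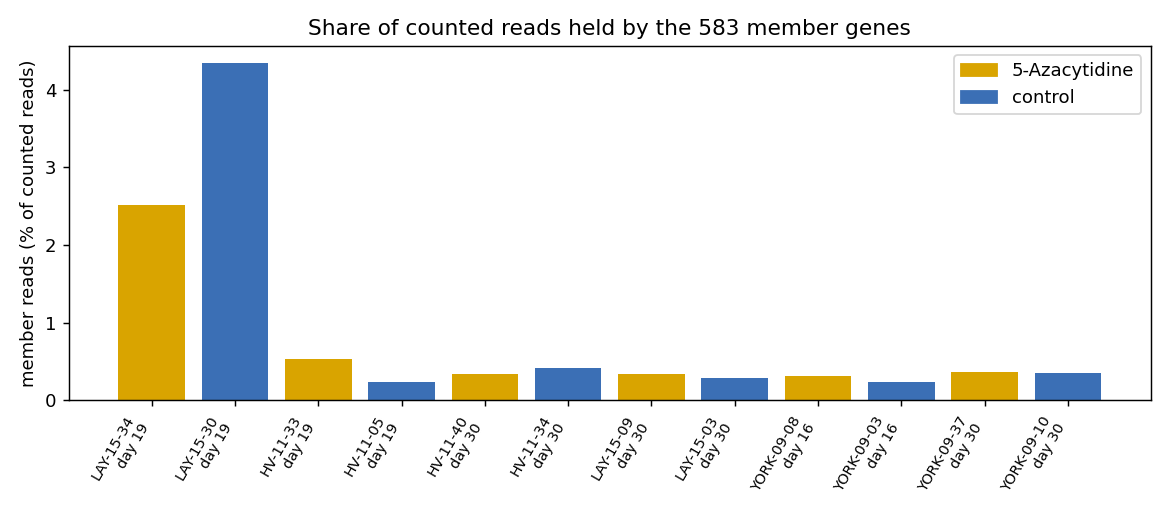
Percent of counted reads that fell on the 583 chosen genes, 1 bar per seedling, with 5-Azacytidine seedlings in yellow and controls in blue. LAY-15-34 and LAY-15-30 stand at 2.52% and 4.35%, and the other 10 seedlings lie between 0.237% and 0.530%.

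The same choice was made for each of the 6 pairs, to show how common such a set is in these data. It gave 583 genes for the day-19 LAY-15 pair, 192 for YORK-09 on day 16, 54 for HV-11 on day 30, 18 for LAY-15 on day 30, 11 for YORK-09 on day 30 and 7 for HV-11 on day 19. Neither the other LAY-15 pair nor the other pair of day 19 gave a set of this size. Each choice set a pair above all others, those of its own family and day included. Genes raised alike across a family or a day could thus enter no set, and these counts do not bear on such genes. The reverse choice asks for genes whose lowest CPM among the other 10 seedlings was at least 1 and at least 2 times the higher CPM of the pair. It gave 206 genes for the day-19 LAY-15 pair and 8 to 14 for the other 5 pairs. Each count compares a single pair with 10 seedlings and has no test.

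**Figure D2:**
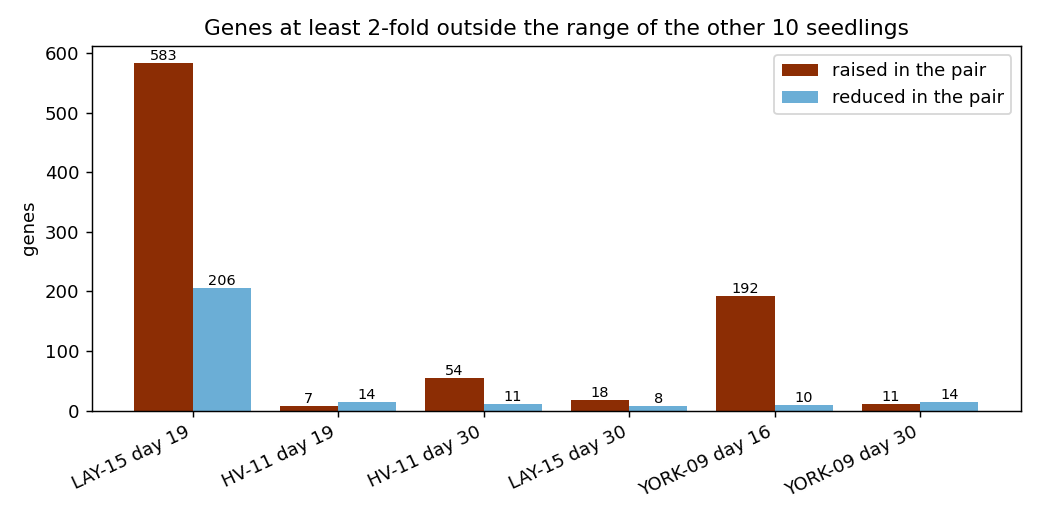
Number of genes at least 2-fold above (brown) or below (blue) all other 10 seedlings in both seedlings of a pair, for the 6 pairs of a family and an extraction day. The day-19 LAY-15 pair has 583 raised and 206 reduced genes, and the next highest count of raised genes is 192.

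The members covered a wide range of levels. The lower CPM of the pair ran from 1.00 to 2205 with a median of 9.90, and it was under 10 for 295 members, from 10 to under 100 for 240 and 100 or more for 48. The highest CPM among the other 10 seedlings had a median of 2.53. The lower CPM of the pair was 2 to under 3 times this highest level for 255 members, 3 to under 5 times for 166, 5 to under 10 times for 100 and 10 times or more for 62, with a median of 3.25. For 48 of the members every other seedling had 3 counts or fewer, and the ratio was then taken against 3 counts in the shallowest of the 10, or 0.302 CPM, as a lower bound. A count was found in all 10 other seedlings for 362 members, and more than 3 counts in all 10 for 252. Only 3 had none in any of them, and these were named after their values were seen. QL06p034736 had 41 counts in LAY-15-34 and 304 in LAY-15-30, which puts the lower level of the pair at least 11.9-fold higher than in the others. QL05p064103 had 22 and 104 counts in the same order of seedlings (at least 6.38-fold), and QL04p042468 had 17 and 35 (at least 4.93-fold).

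Members close to the 2-fold limit had ratios of 2.0018 and 2.0023, and the nearest genes outside it had 1.9957 and 1.9939. The inner 2 had 10.4 and 3.50 CPM in LAY-15-34, 16.6 and 37.4 CPM in LAY-15-30 and a highest other level of 5.21 and 1.75 CPM. The outer 2 had 3.94 and 6.92 CPM in LAY-15-34, 40.8 and 5.62 CPM in LAY-15-30 and a highest other level of 1.98 and 2.82 CPM. The limit thus fell within a continuous range of values.

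The member with the highest level was QL02p024302. It had 2205 CPM in LAY-15-34 and 3390 CPM in LAY-15-30, against a lowest value of 149, a median of 516 and a highest value of 798 CPM (YORK-09-10) in the other 10 seedlings. It was thus an abundant transcript in every seedling and stood 2.76-fold above the nearest. The next was QL05p019130, with 1684.5 CPM in LAY-15-34 and 1930 CPM in LAY-15-30, against 0.681 CPM (YORK-09-08) at the lowest, a median of 14.5 and 155 CPM (YORK-09-10) at the highest in the others. Its spread among the other seedlings was far wider than that of QL02p024302, and the pair stood 10.8-fold above the highest of them.

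The largest ratio belonged to QL10p016991. It had 330.0 CPM in LAY-15-34 and 136 CPM in LAY-15-30, while the other 10 seedlings had 0 CPM (LAY-15-03) at the lowest, a median of 0.560 and 1.46 CPM (HV-11-33) at the highest, so that the pair stood 93.2 times above the rest. QL09p046203 followed with a ratio of 80.0. It had 43.7 CPM in LAY-15-34 and 57.6 CPM in LAY-15-30, against 0 CPM (LAY-15-03), a median of 0.176 and a highest value of 0.546 CPM (HV-11-33). Both genes were close to silent in the other LAY-15 seedlings, with 0.581 and 0.387 CPM in LAY-15-09 and 0 CPM in LAY-15-03. In both, the highest of the other seedlings was HV-11-33.

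Within the pair the control was usually the higher of the 2. Of the members, 154 had a higher CPM in LAY-15-34 and 429 in LAY-15-30, so that 26.4% were higher in the treated seedling. Among the 17364 other genes with at least 1 CPM in both seedlings, 38.0% were higher in LAY-15-34. The ratio of LAY-15-34 over LAY-15-30 had a median of 0.608 for the members, with quartiles of 0.285 and 1.02, and a median of 0.838 for those other genes. It was at least 2 for 35 members and at most 0.5 for 240, while 308 lay in between. At the extremes, 2 members were over 10-fold higher in LAY-15-34 and 35 were over 10-fold higher in LAY-15-30. The members over 10-fold higher in LAY-15-34 were QL08p039358, with 33.0 CPM in LAY-15-34 and 1.71 CPM in LAY-15-30, and QL01p024933, with 40.5 and 2.71 CPM in the same order. Neither had more than 3 counts in any other seedling, and both were named after their values were seen.

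**Figure D3:**
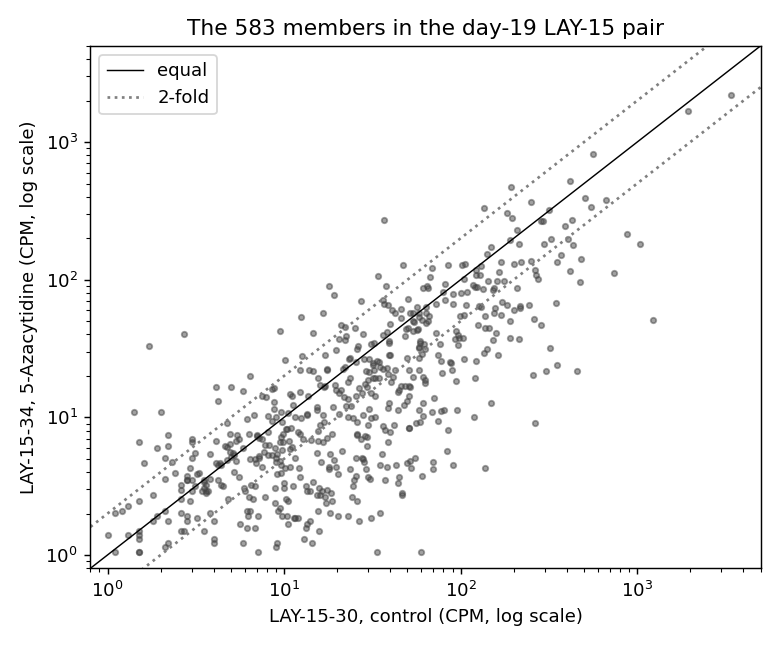
Level of each of the 583 members in LAY-15-34 (5-Azacytidine, vertical axis) and LAY-15-30 (control, horizontal axis), in CPM on log scales, with a solid line at equal levels and dotted lines at a 2-fold difference. Most points lie under the solid line, 429 being higher in LAY-15-30 and 154 in LAY-15-34.

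The lean towards the control was present at every size of ratio. Members higher in LAY-15-30 made up 69.8% of those 2 to under 3 times above the other seedlings, 74.1% of those 3 to under 5 times above, 78% of those 5 to under 10 times above and 80.6% of those 10 times or more above. Since the lower level of the pair entered the choice, these shares are a description. The other genes with at least 1 CPM in both seedlings leaned the same way, with 38.0% higher in LAY-15-34. CPM was taken on column totals. TMM, a scaling of library sizes, gave factors of 0.879 for LAY-15-34 and 1.04 for LAY-15-30. How far this scaling bears on the lean was not tested.

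Some members stood next to each other in the list of identifiers. When all identifiers were sorted, 55 of the 583 members had another member directly before or after them. They formed 25 runs, of which 21 held 2 members, 3 held 3 and 1 held 4. The sorted list included 5962 genes with no count in any seedling. No like count was made for other sets of genes, so whether this number is unusual was not tested. The 4 of the longest run were QL02p035884, QL02p035996, QL02p036001 and QL02p036021. QL02p035884 had 62.9 CPM in LAY-15-34 and 131 CPM in LAY-15-30, against 0.432 to 11.0 CPM in the others with a median of 2.90. QL02p036021 had 102 and 275 CPM in the same order, against 0.259 to 2.91 CPM with a median of 0.850. The other 2 were at 39.5 and 36.4 CPM (QL02p035996) and at 5.26 and 7.23 CPM (QL02p036001) in the pair, against at most 5.83 and 0.455 CPM. In all 4 genes HV-11-33 was the highest of the other seedlings. The sources used here do not say whether the order of identifiers follows the genome, and whether such neighbours share sequence was not tested. Multi-mapping reads had been discarded before counting, so the counts of near-identical copies are uncertain.

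Members occurred under each of the 13 prefixes that open the identifiers. The share of members among genes was highest under QL08 (68 members, 2.00 per 100 genes), QL02 (100 members, 1.96) and QL01 (50 members, 1.96). It was lowest under QL93 (5 members, 0.579 per 100 genes), QL09 (25 members, 0.913) and QL04 (37 members, 0.932).

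The choice bounded the other 10 seedlings from above by a common ceiling and did not set their order under it. Of these, HV-11-33, the treated HV-11 seedling of day 19, was the highest for 217 of the 583 members (37.2%). It was the highest of the 10 for 7.71% of the 24590 genes with at least 1 CPM in any of them. These shares differ in base. The members lay under the ceiling and needed no level in the 10, where their highest CPM had a first quartile of 0.820. The shares of all genes in this paragraph have no such ceiling. HV-11-34, a control of day 30, followed with 114 members (19.6%, against 10.3% of all genes), and each other seedling was highest for at most 43. The 3 members with no read in any of the 10 have no highest seedling and were counted under HV-11-05. The median member reached 21.3% of the lower CPM of the pair in HV-11-33 and 16.1% in HV-11-34. It reached 12.4% in LAY-15-09 and 10.5% in LAY-15-03, the LAY-15 seedlings of day 30, and 6.21% in HV-11-05, the other HV-11 seedling of day 19. The remaining 5 lay between 7.31% and 9.81%. Reads were found for 554 members in HV-11-33 and for 469 (HV-11-05) to 526 (HV-11-34) members in the other 9 seedlings. HV-11-33 was at least 1 CPM and 2 times above the other 9 for 23 of the 371 members that reached 1 CPM in it, or 6.20%, beside 1.17% of all genes that did. HV-11-34 followed with 6 of the 317 members that reached 1 CPM in it (1.89%, beside 1.65% of all genes that did). Each of the remaining seedlings had a lower share for members than for all genes, from 0% to 1.10% beside 0.534% to 2.81%.

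**Figure D4:**
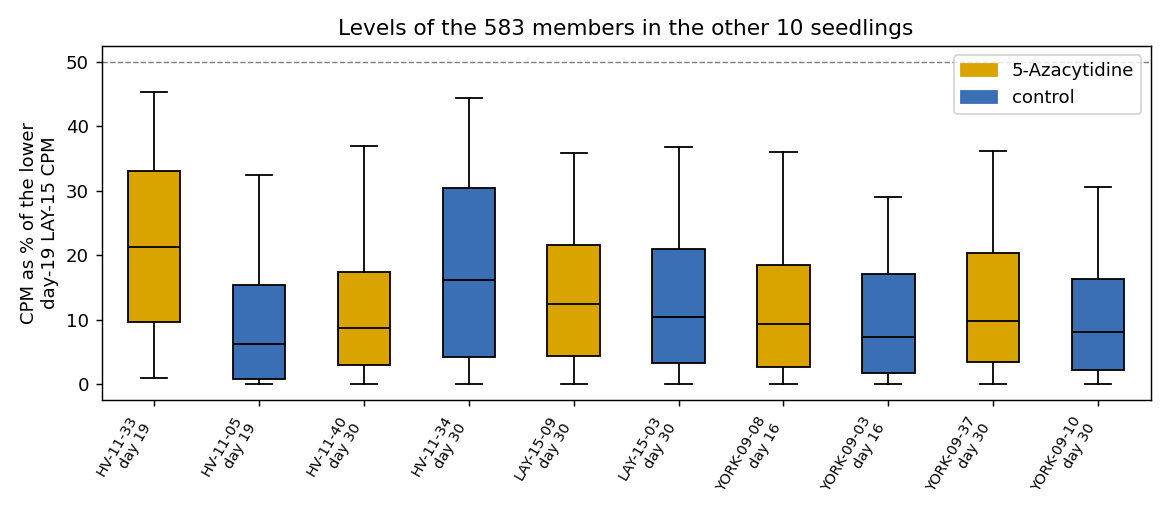
CPM of the 583 members in each of the other 10 seedlings, as a percent of the lower CPM of the day-19 LAY-15 pair. Boxes show quartiles and median, whiskers the 5th and 95th percentiles, yellow 5-Azacytidine, blue control, and the dashed line marks the ceiling of 50% that the choice set. Medians run from 6.21% in HV-11-05 to 21.3% in HV-11-33.

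Treated and control seedlings were next compared within each of the other 5 pairs, on log2(CPM + 0.5), over the 23142 genes that passed the filter on low counts in the 10 seedlings outside the day-19 LAY-15 pair. The filter for this comparison was set after seeing the data. It kept 379 members, and the other 204 were too low in these seedlings. With 1 seedling per treatment these differences have no replicate. In the HV-11 pair of day 19, 202 members (53.3%) were at least 2-fold higher in treated HV-11-33 than in control HV-11-05, beside 14.7% of all genes kept, and 6 members (1.58%) were at least 2-fold lower, beside 10.2% of all. In that pair 337 members (88.9%) were higher in the treated seedling, with a median log2 difference of 1.07, against -0.05 over all genes kept.

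The HV-11 pair of day 30 ran the other way. There 25 members (6.60%) were 2-fold higher in treated HV-11-40 than in control HV-11-34, beside 10.4% of all genes, and 120 (31.7%) were 2-fold lower, beside 12.8% of all, with a median log2 difference of -0.57 for the members. The remaining pairs stood nearer to 0. In LAY-15 on day 30, 14.5% of the members were 2-fold higher in the treated seedling and 5.80% lower, beside 7.05% and 12.7% of all genes. In YORK-09 on day 16 the shares were 11.9% higher and 7.65% lower, beside 14.7% and 11.9%. In YORK-09 on day 30 they were 16.9% higher and 6.60% lower, beside 11.3% and 11.7%. The median log2 difference of the members was 0.19 in LAY-15 on day 30, 0.11 in YORK-09 on day 16 and 0.28 in YORK-09 on day 30, against -0.13, 0.09 and 0.01 over all genes kept. The median was thus positive in 4 of these 5 pairs and negative in the HV-11 pair of day 30.

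**Figure D5:**
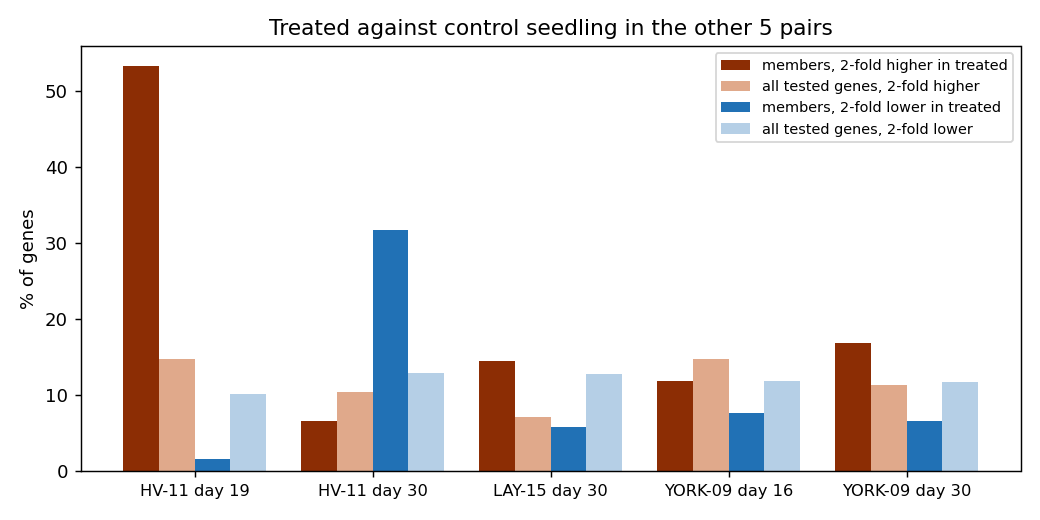
Percent of the 379 members (dark bars) and of all 23142 genes (light bars) that passed the filter in the 10 other seedlings and were at least 2-fold higher (brown) or lower (blue) in the 5-Azacytidine seedling than in the control of the same family and day, on log2(CPM + 0.5). In the HV-11 pair of day 19, 53.3% of the members were higher, beside 14.7% of all genes.

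Treatment was then tested over all 12 seedlings with extraction day as a covariate, the model of the study, using edgeR's quasi-likelihood test with Benjamini-Hochberg adjustment over all 23791 genes. 0 members had an adjusted p under 0.05, as did 0% of all genes. At an unadjusted p under 0.05, 5 members were higher (beside 1.65% of all genes) and 2 lower (beside 1.15%) in treated seedlings, of 583 tested. All 583 members passed the filter on low counts here, 204 of them only through the pair that chose them, so these counts are a description. The choice also set the pair above the other seedlings of day 19, and the model has no family or pair term. That gap enters the spread against which treatment is judged, so a low count of members is not a result on treatment. The counts moved with the fit. With the 6 pairs as a block, 22 members (3.77%, beside 1.79% of all genes) were higher, and without LAY-15-30, 36 were (6.17%, beside 1.91%). Without HV-11-05, 17 members were lower (2.92%, beside 1.79% of all genes). DESeq2 with the same model called 0 members, while it called 0.0967% of all genes. The median log2 difference of the members was -0.14, against -0.02 over all genes. Its sign rested on single seedlings, as it was 0.66 without LAY-15-30, 0.13 without HV-11-33 and 0.13 with the 6 pairs as a block.

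The 5 higher members were QL08p030976, QL10p006090, QL06p010998, QL01p024933 and QL08p039358, the last 3 of them named after their values were seen. QL08p030976 had a lowest value of 1.94, a median of 7.06 and a highest value of 106 CPM in the 6 treated seedlings, against 0.604, 1.58 and 34.1 CPM in the 6 controls. In both groups the highest value was the LAY-15 seedling of day 19, and the groups overlapped. Its log2 fold change was 2.01 (SE 0.81, adjusted p = 1.00 from edgeR). QL10p006090 had a median of 0.387 and a highest value of 10.9 CPM in treated seedlings, against a median of 0 and a highest value of 2.01 CPM in controls, with a log2 fold change of 3.24 (SE 1.35, adjusted p = 1.00 from edgeR). It was 6.50 without LAY-15-30 and 2.37 without LAY-15-34. The 2 lower members, QL04p052540 and QL02p073912, were nearly confined to the pair itself. QL04p052540 had 12 counts in LAY-15-34 and 334 in LAY-15-30, and at most 1 count in each other seedling. QL02p073912 had 23 and 348 counts in the same order and at most 3 elsewhere. Both differences rest on the pair that chose the genes, as do those of QL01p024933 and QL08p039358, which had at most 3 counts in each other seedling.

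Over the 10 seedlings outside the pair, 379 members passed the filter on low counts and 204 did not. edgeR's test, with extraction day as a covariate, gave 0 members with an adjusted p under 0.05, as it did for 0% of the 23142 genes tested. At an unadjusted p under 0.05, 24 of the 379 members (6.33%) were higher in treated seedlings, beside 1.71% of all genes, and 1 (0.264%) was lower, beside 1.75% of all. A positive log2 difference was found for 267 members (70.4%), against 50.7% of all genes, and the median was 0.27 for the members and 0.01 for all genes. The HV-11 seedlings of day 19 are the only ones of their day among these 10, so leaving out either removes the weight of both. The median was then 0.01. At an unadjusted p under 0.05, 14 members were higher without HV-11-05 (3.69%, beside 1.53% of all genes) and 13 without HV-11-33 (3.43%, beside 1.54%). In the other direction, the median was 0.44 without HV-11-34 and 0.40 without HV-11-40. In that order, 17 members (4.49%, beside 1.60% of all genes) and 28 members (7.39%, beside 2.09%) were higher. With the 5 pairs as a block, 15 members were higher (3.96%, beside 1.57% of all genes), with a median of 0.28. DESeq2 called 3 members, all higher in treated seedlings, and 0.259% of all genes.

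These 3 were QL11p054876, QL06p010998 and QL03p032854, the last named after its values were seen. QL11p054876 had 14.8 (LAY-15-09), 12.6 (HV-11-40), 8.47 (HV-11-33), 5.25 (YORK-09-08) and 4.38 CPM (YORK-09-37) in the treated seedlings, against 4.24 (HV-11-05), 2.32 (LAY-15-03), 2.00 (YORK-09-10), 0.539 (HV-11-34) and 0.519 CPM (YORK-09-03) in the controls. The groups did not overlap, although the lowest treated seedling and the highest control were close. The mean was 9.10 ± 4.53 CPM in treated and 1.92 ± 1.53 CPM in control seedlings (SD, n = 5 each), with a log2 fold change of 2.47 (SE 0.58, adjusted p = 1.00 from edgeR and 0.0135 from DESeq2). In the pair itself the order was reversed, with 51.9 CPM in treated LAY-15-34 and 260.1 CPM in control LAY-15-30.

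QL06p010998 had 2.52 (LAY-15-09), 2.50 (YORK-09-37), 1.37 (HV-11-33), 1.17 (YORK-09-08) and 0.745 CPM (HV-11-40) in the treated seedlings, against 0.346 (YORK-09-03), 0.180 (HV-11-34), 0.0952 (YORK-09-10), 0 (HV-11-05) and 0 CPM (LAY-15-03) in the controls. The groups did not overlap, but all of these controls other than YORK-09-03 lay under the level of 3 counts in their libraries. The separation and the fold change thus rest on control values near the floor. The gene was also higher in treated LAY-15-34 (77.9 CPM) than in control LAY-15-30 (19.3 CPM), so that the direction was the same in all 6 pairs. Its log2 fold change over the 10 seedlings was 3.91 (SE 0.97, adjusted p = 1.00 from edgeR and 0.0360 from DESeq2). With the pairs as a block, a setting chosen after seeing the data, DESeq2 gave QL06p010998 an adjusted p of 0.0916 over the 10 seedlings. It called only QL11p054876 among the members there, beside 0.475% of all genes. Over all 12 seedlings DESeq2 called QL06p010998 and QL08p030976, beside 0.256% of all genes. QL03p032854 had 24.8 CPM in HV-11-33 and 17.9 CPM in LAY-15-09 and 1.12 to 5.36 CPM in the other 3 treated seedlings, against 0.201 to 2.25 CPM in the controls, and here the groups overlapped.

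Among the members lower in treated seedlings, QL02p068797 was the one with the smallest p. It had 11.7 (YORK-09-08), 8.29 (HV-11-33), 6.97 (LAY-15-09), 6.25 (YORK-09-37) and 6.06 CPM (HV-11-40) in the treated seedlings, against 15.9 (HV-11-34), 11.4 (YORK-09-03), 11.4 (LAY-15-03), 11.3 (HV-11-05) and 7.52 CPM (YORK-09-10) in the controls. The groups overlapped, and the log2 fold change was -0.57 (SE 0.24, adjusted p = 1.00 from edgeR). QL02p063939 came next at a mean of 0.248 ± 0.279 CPM in treated and 1.02 ± 0.78 CPM in control seedlings (SD, n = 5 each), again with overlap (log2 fold change -2.26, SE 1.09, adjusted p = 1.00 from edgeR).

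Whether the members were also higher in LAY-15 seedlings outside the pair was asked among the 6 seedlings of day 30. LAY-15-09 and LAY-15-03 were compared with the mean of HV-11 and YORK-09, with treatment as a covariate, and 340 members passed the filter. edgeR gave 0 members with an adjusted p under 0.05, beside 0% of the 21915 genes tested. At an unadjusted p under 0.05, 4 members were higher in LAY-15 (1.18%, beside 3.26% of all genes) and 6 were lower (1.76%, beside 2.52%). The median log2 difference of the members was 0.15, against 0.01 over all genes, and ran from -0.20 without LAY-15-09 to 0.45 without HV-11-34. The median was negative only without LAY-15-09 or without HV-11-40 (-0.13), so that its sign turned with a single seedling. DESeq2 called 3 members, 1 higher and 2 lower, and 1.34% of all genes.

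The 4 higher members were QL04p041297, QL02p017094, QL04p033258 and QL02p093392, the last 2 named after their values were seen. QL04p041297 had 4.94 CPM in LAY-15-09 and 2.22 CPM in LAY-15-03, against 1.24 (YORK-09-10), 0.982 (YORK-09-37), 0.359 (HV-11-34) and 0.186 CPM (HV-11-40) in the other families, and the groups did not overlap (log2 fold change 2.72, SE 0.69, adjusted p = 0.758 from edgeR). QL02p017094 had 12.8 and 7.05 CPM in LAY-15-09 and LAY-15-03, against 9.29 (YORK-09-37), 3.81 (YORK-09-10), 2.52 (HV-11-40) and 2.15 CPM (HV-11-34), with overlap (log2 fold change 1.39, SE 0.37, adjusted p = 0.758 from edgeR). QL04p033258, the member that DESeq2 called higher, had 24.1 and 23.5 CPM in LAY-15-09 and LAY-15-03, against 8.26 (HV-11-34), 4.09 (YORK-09-10), 0.652 (HV-11-40) and 0.0893 CPM (YORK-09-37). DESeq2 gave it an adjusted p of 0.00164, and edgeR 0.783.

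The members with the smallest p in this comparison were lower in LAY-15. QL03p002774 had 1.94 CPM in LAY-15-09 and 3.12 CPM in LAY-15-03, against 26.6 (YORK-09-10), 17.0 (YORK-09-37), 16.8 (HV-11-34) and 6.24 CPM (HV-11-40), a log2 fold change of -2.53 (SE 0.36, adjusted p = 0.621 from edgeR and 3.46e-04 from DESeq2). In the day-19 pair the same gene stood at 141 CPM in LAY-15-34 and 480 CPM in LAY-15-30. QL02p024302, the most abundant member, had 211 and 169 CPM in LAY-15-09 and LAY-15-03, against 798 (YORK-09-10), 787 (YORK-09-37), 721 (HV-11-40) and 440 CPM (HV-11-34), a log2 fold change of -1.77 (SE 0.30, adjusted p = 0.666 from edgeR and 6.99e-06 from DESeq2). In both genes the day-30 LAY-15 seedlings lay under all 4 seedlings of the other families. The day-19 LAY-15 seedlings lay above them, as the choice required.

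Whether the members were also higher on day 19 in another family could be asked only in HV-11, with 2 seedlings of each day and treatment as a covariate. Of the members, 343 passed the filter. edgeR gave 0 with an adjusted p under 0.05, beside 0% of the 21068 genes tested. At an unadjusted p under 0.05, 0 members were higher on day 19, beside 0.968% of all genes, and 1, QL06p000916, was lower (0.292%, beside 3.3% of all). DESeq2 called 0 members and 1.38% of all genes. The median log2 difference of the members was 0.06, against 0.01 over all genes. It was -0.75 without HV-11-33 and 0.73 without HV-11-34, and the counts turned with it. At an unadjusted p under 0.05, 18 members were higher on day 19 without HV-11-05 (5.25%, beside 2.38% of all genes) and 11 without HV-11-34 (3.21%, beside 1.87%), while 25 were lower without HV-11-33 (7.29%, beside 6.04%).

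QL02p004101 had 67.5 CPM in HV-11-33 and 75.5 CPM in HV-11-05 on day 19, against 26.7 CPM in HV-11-40 and 51.0 CPM in HV-11-34 on day 30. The days did not overlap, with a log2 fold change of 1.02 (SE 0.38, adjusted p = 1.00 from edgeR). QL05p019130 had 19.5 and 16.8 CPM on day 19, against 11.7 and 2.78 CPM on day 30, in the same order of seedlings (log2 fold change 1.72, SE 0.67, adjusted p = 1.00 from edgeR). QL06p000916 had 104 and 72.4 CPM on day 19, against 237 and 260.1 CPM on day 30 (log2 fold change -1.44, SE 0.40, adjusted p = 1.00 from edgeR). QL06p023258 had 16.7 and 2.33 CPM on day 19, against 25.1 and 31.2 CPM on day 30 (log2 fold change -2.05, SE 1.09, adjusted p = 1.00 from edgeR). In LAY-15-34 and LAY-15-30, QL02p004101 had 324 and 316 CPM and QL06p000916 had 817 and 562 CPM.

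Among the other 10 seedlings the spread of the more abundant members was wider than that of genes at like levels. For a mean of 10 to under 100 CPM, the SD of log2(CPM + 0.5) had a median of 0.63 over 74 members, against 0.42 over all 10155 genes of that range. From 1 to under 10 CPM the medians were 0.68 over 225 members and 0.75 over 9156 genes. The ceiling of the choice bears on these spreads, and the difference was not tested.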

How the data were processed

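RNA-seq read counts per gene were available for 12 leaf samples, 1 column per seedling. The authors trimmed reads with Cutadapt 2.3, aligned them to version 3.0 of the species' genome with STAR 2.7.1, removed multi-mapping reads (Samtools 1.9) and platform duplicates (Picard 2.20.3), and deposited the counts from htseq-count 0.11.1 without normalization. The strand setting and annotation version are not given in the sources used here, which leaves counts on overlapping or antisense genes uncertain.

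CPM was computed from column totals. The genes and comparisons were chosen with earlier results of these data known. For tests, filterByExpr (minimum count 10, minimum total 15, at least 2 seedlings) and TMM were applied to the seedlings of each fit, and edgeR 4.0.16 (glmQLFit, glmQLFTest, R 4.3.3) was run over all genes kept. Standard errors were approximated from the test statistic. DESeq2 1.42.0, the study's tool, was the alternative, and its empty adjusted p-values were not counted as calls. P-values measure the spread between seedlings. The scripts were checked on counts drawn from the real means and library sizes, with a single spread for all genes and no family or pair differences. That check covers the code and not the power of the tests in these data. Treated and control seedlings of a family and day formed 6 pairs by the labels, and their deviations from treatment means correlated at 0.0673 to 0.489 (mean 0.217), against -0.0425 between pairs. Genes named were the 2 members with the highest level, the 2 with the largest ratio, the longest run of neighbours, and in each test up to 2 members per direction with the smallest p. Intervals and limits from 3 counts cover counting error only.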

Additional observations from a re-analysis of the deposited data

Results flagged for a closer look

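Among the 5 treated seedlings outside the day-19 LAY-15 pair, HV-11-33 stood apart in the summed level of the members, at 5302 CPM, while the other 4 lay between 3173 and 3691 CPM. Without the 10 members that had the most reads in HV-11-33, a setting chosen after seeing the data, its sum was 3542 CPM and still the highest of the 10 seedlings. HV-11-33 stood apart in the same way for QL02p035884 (11.0 CPM, others 1.94 to 3.48 CPM) and QL02p035996 (5.83 CPM, others 0.0972 to 1.74 CPM). For QL02p073912 (0.273 CPM) and QL04p052540 (0.0911 CPM) it was the only one of these 5 with a read, which is 3 counts and 1 count. LAY-15-09 stood apart for QL04p041297, at 4.94 CPM beside 0.186 to 1.00 CPM in the other 4. Among the 5 other controls, YORK-09-10 stood apart for QL05p019130, at 155 CPM beside 1.21 to 16.8 CPM. These 7 values came from 54 groups of 5 examined, of which those with equal values could not be flagged. A group with reads in only 1 seedling is always flagged, and the groups are not independent, so no chance rate is given.

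For 3 named genes, the treated seedling was above its control in both pairs of 1 family and below it in both pairs of another, and these differences between families were not tested. The mean difference of treated minus control was -16.1 CPM in HV-11 and 11.3 CPM in YORK-09 for QL02p004101. It was 6.13 CPM in LAY-15, whose day-19 pair chose the gene, -0.666 CPM in HV-11 and -0.290 CPM in YORK-09 for QL04p041297. For QL05p019130 it was 5.84 CPM in HV-11 and -48.1 CPM in YORK-09. The latter rests on control YORK-09-10 at 155 CPM, as the day-16 pair had 0.681 (YORK-09-08) and 1.21 CPM (YORK-09-03).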

How the results depend on the processing

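The number of genes chosen moved with the limits. It was 976 at 1.5-fold, 328 at 3-fold and 385 with a floor of 5 CPM, and 636 with a floor of 0.5 CPM. With library sizes from TMM it was 703, of which 574 were among the 583, and with median-ratio size factors 698, of which 576 were. Leaving out 1 seedling gave 591 to 2213 genes, the largest being 2213 with LAY-15-30 alone (without LAY-15-34), and 1033 with LAY-15-34 alone (without LAY-15-30), while leaving out any of the other 10 gave at most 701. In each test, edgeR called 0 members in all alternatives run (17, 15, 9 and 7 of them for treatment in 12 and in 10 seedlings, family and extraction day), with 0 to 0 over the fits without 1 seedling. DESeq2 called 3 members by treatment in the 10 seedlings (beside 0.259% of all genes) and 3 by family (beside 1.34%). With the pairs as a replicate block (chosen after seeing the data), DESeq2 called 2 members over 12 seedlings and 1 over 10. It called 0.256% and 0.475% of all genes in these fits, and edgeR called 0 members in both. Leaving out an HV-11 seedling from the comparison of days was run without the treatment term, and the day left with 1 seedling was assumed to vary like the other. The signs of the 16 differences of named genes in the tests held in all alternatives run. At 9926728 to 11570198 counted reads per seedling, levels of 0.302 CPM in the shallowest seedling rest on 3 counts.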
